A study of Bos taurus with 8 samples.

Results

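ISG15 and 4 genes that put its protein onto other proteins or take it off again were described in blood mononuclear cells of Holstein cattle. They were ISG15 (ENSBTAG00000014707), UBA7 (ENSBTAG00000012335), UBE2L6 (ENSBTAG00000012989), HERC6 (ENSBTAG00000020536) and USP18 (ENSBTAG00000016661), 5 of the 21861 genes in the tables. The set was selected on measured values, the levels of these genes in the same libraries with and without lipopolysaccharide (LPS), so their ratios to the cells without LPS are a description and support nothing further. Blood of 4 lactating Holstein cows aged 2 years was pooled and divided into 4 parts. One part had no LPS, and the others had LPS, a component of the outer membrane of Gram-negative bacteria, at 2 µg/ml and 37 °C for 2 h, 4 h or 8 h. Mononuclear cells were isolated after the treatment, and each part gave 1 single-cell RNA library and 1 single-cell chromatin accessibility library. Each treatment therefore had 1 library per assay made from pooled animals, no difference had a replicate check, and library and treatment cannot be told apart. How long the part without LPS was incubated is not given in the sources used here, so the LPS and the incubation time cannot be told apart either.

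ISG15 is a small protein built like a pair of joined ubiquitin domains, and its gene is one of those most strongly switched on by type I interferons. It is attached to lysines of other proteins by a relay like that of ubiquitin. UBA7 is the activating enzyme (E1), UBE2L6 the conjugating enzyme (E2), and HERC5 or HERC6 the ligase (E3), while USP18 is the protease that removes ISG15 and also damps signalling at the interferon receptor subunit IFNAR2. Free ISG15 can also be secreted and act on leukocytes through the integrin of ITGAL and ITGB2.

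The library without LPS kept 7821 cells, and those of 2 h, 4 h and 8 h of LPS kept 9865, 7387 and 3411. They held 38503367, 47875879, 40160248 and 16657841 unique molecular identifiers (UMIs, each standing for 1 captured RNA molecule). Between 6 and 21 cell barcodes were shared by any 2 libraries. Levels are UMIs of a gene per 1000000 UMIs (CPM) over the summed cells, with an exact Poisson 95% interval, and folds carry an exact conditional binomial 95% interval. These intervals cover counting error only, not the differences between animals or libraries. Cells under 2000 UMIs made up 8.83% to 14.4% of the first 3 libraries and 26.6% of the 8 h library, which stood apart by its few cells and many shallow ones.

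Over all cells, every one of the 5 genes had its highest level at 4 h, and ISG15 ranked number 1 of 12060 genes by its ratio to the level without LPS, with 1 CPM added to both. ISG15 alone of the 5 had also passed 2-fold by 2 h. At 8 h all 5 levels over all cells were below those of 4 h and still above those without LPS. In the cells under 2000 UMIs ISG15 was then below its level without LPS, as given below.

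ISG15, the modifier, was at 163 CPM (159 to 167) without LPS, 1202 CPM (1192 to 1212) at 2 h, 2934 CPM (2917 to 2951) at 4 h and 339 CPM (330 to 348) at 8 h. Against no LPS its level was 7.39-fold at 2 h (7.20 to 7.59), 18.1-fold at 4 h (17.6 to 18.5) and, by 8 h, 2.09-fold (2.01 to 2.16). The 4 intervals of the level were all apart, and the 8 h level was 0.116 of the 4 h level (0.113 to 0.119). Ranked by this ratio, with 1 CPM added to both levels, among the genes with at least 20 UMIs over the pair of libraries, ISG15 was number 5 of 12150 at 2 h, number 1 of 12060 at 4 h and, by 8 h, number 43 of 11778. With every cell weighted equally the folds were 3.89, 9.20 and 1.38. The 8 h value lay at the limit of 2-fold, and it was 1.91-fold with either edgeR TMM scaling or DESeq2 size factors.

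UBA7, the E1 that activates ISG15, was at 9.40 CPM (8.46 to 10.4) without LPS, 9.07 CPM (8.23 to 9.96) at 2 h, 26.7 CPM (25.2 to 28.4) at 4 h and 16.2 CPM (14.3 to 18.3) at 8 h. The first 2 levels overlapped, with a fold of 0.964 at 2 h (0.837 to 1.11), and the 4 h level was 2.84-fold that without LPS (2.52 to 3.21). UBA7 also kept the most of its 4 h level at 8 h, a fraction of 0.606 (0.528 to 0.693), and was then 1.72-fold the level without LPS (1.47 to 2.02). UBE2L6, the E2 that takes ISG15 over from UBA7, was at 18.3 CPM (16.9 to 19.7), 19.8 CPM (18.6 to 21.1), 44.5 CPM (42.5 to 46.6) and 24.6 CPM (22.2 to 27.1) in the same order of libraries. Its fold was 1.09 at 2 h, with an interval that held 1 (0.983 to 1.197), 2.44 at 4 h (2.23 to 2.66) and, by 8 h, 1.35 (1.19 to 1.52).

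HERC6, the E3 ligase of the set, was at 11.2 CPM (10.1 to 12.3) without LPS, 17.0 CPM (15.9 to 18.2) at 2 h, 57.4 CPM (55.0 to 59.7) at 4 h and 20.4 CPM (18.2 to 22.6) at 8 h. Its fold of 5.14 at 4 h (4.63 to 5.71) came next to that of ISG15 among the 5 genes, after 1.52 at 2 h (1.36 to 1.72) and before 1.82 at 8 h (1.58 to 2.11). USP18, the protease, was at 62.2 CPM (59.7 to 64.7), 88.0 CPM (85.3 to 90.7), 200.2 CPM (196 to 205) and 76.9 CPM (72.8 to 81.2). Its fold was 1.42 at 2 h (1.35 to 1.49), 3.22 at 4 h (3.08 to 3.37) and, by 8 h, 1.24 (1.16 to 1.33). From 2 h to 4 h the folds of the 5 genes lay close together, from 2.25 for UBE2L6 to 3.37 for HERC6, with 2.44 for ISG15. Over all cells ISG15 thus differed from the other 4 mainly in its earlier step, from no LPS to 2 h, and in its deeper drop from 4 h to 8 h. In the monocytes ISG15 did not stand apart in this way, as given below.

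**Figure D1:**
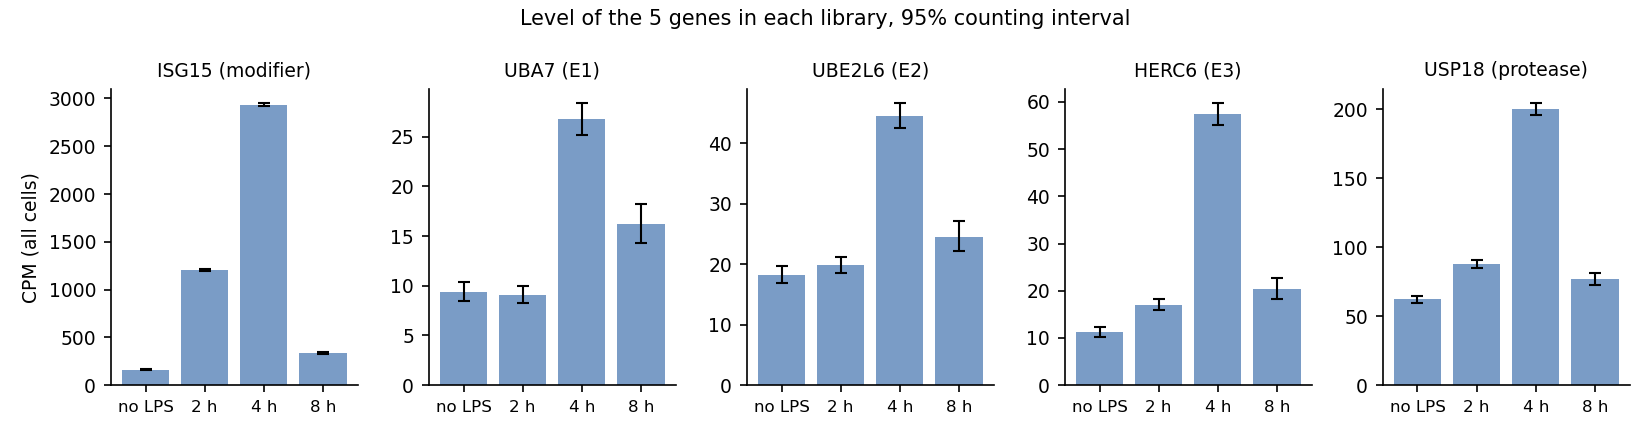
Level of ISG15 and the 4 genes of its conjugation and removal in each library over all cells (y axis, CPM from 0, a different scale for each gene). Bars are the level of 1 library and whiskers the exact Poisson 95% interval. Every gene is highest at 4 h, and only ISG15 is far above its level without LPS at 2 h (1202 against 163 CPM).

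Of the 5 genes, 1 was at least 2-fold higher than without LPS at 2 h, where 0.938% of the 12150 genes compared were. All 5 were at 4 h, where 1.28% of 12060 were, and 1 was at 8 h, where 0.492% of 11778 were. Since the genes were chosen for this pattern, nothing is read from these shares. The other 4 ranked 20 (HERC6), 48 (USP18), 62 (UBA7) and 94 (UBE2L6) of 12060 at 4 h. The median log2 ratio of the 5 genes, with 1 CPM added, was 0.49, 1.67 and 0.73 over the 3 LPS times, beside -0.03, 0.02 and 0.10 for all genes compared.

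Cells were also put into 4 classes by the raw UMIs of a surface marker gene, at least 1 of CD14 (monocytes), CD3E (T cells), MS4A1 (B cells) or NCR1 (NK cells) and none of the other 3. In each class the other markers of its own label summed highest among the T cell, B cell, monocyte and NK lists, but the classes were not pure. B cell markers summed to 111 to 148 CPM in the CD3E cells, and T cell markers to 125 to 171 CPM in the NCR1 cells. What part this has in the class values was not tested. Monocyte markers summed to 1255 to 3203 CPM in the CD14 cells and to at most 30.3 CPM in the other classes. B cell markers summed to 1121 to 1489 CPM in the MS4A1 cells, T cell markers to 457 to 502 CPM in the CD3E cells and NK markers to 780 to 1047 CPM in the NCR1 cells. The CD14 class differed most between libraries, from 796 cells with a median of 8293 UMIs without LPS to 382, 151 and 170 cells, the last with a median of 1550 UMIs. Granulocyte markers (CSF3R, CXCR1 and CXCR2, receptors of neutrophils) summed to 16.3 CPM in the CD14 cells of the library without LPS and to 73.8, 217 and 73.5 CPM over the 3 LPS times, and their part in the values of this class was not tested. The NCR1 class held only 38 to 97 cells. Doublets were not called, and the 414 to 699 cells with several gate markers per library belong to no class.

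ISG15 was highest in the MS4A1 cells at every LPS time. In them it was at 196 CPM (186 to 206) without LPS, 2614 CPM (2585 to 2643) at 2 h, 5344 CPM (5302 to 5386) at 4 h and 537 CPM (514 to 560) at 8 h. In the CD3E cells it was at 77.2 CPM (72.8 to 81.7), 454 CPM (445 to 463), 1542 CPM (1524 to 1559) and 176 CPM (168 to 186). The CD3E level was thus 0.394 of the MS4A1 level without LPS (0.365 to 0.425) and 0.174 of it at 2 h (0.170 to 0.178), when the classes were farthest apart. In the CD14 cells ISG15 was at 209 CPM (198 to 220), 727 CPM (700 to 755), 1241 CPM (1181 to 1304) and 214 CPM (184 to 247). The CD14 cells had about the level of the MS4A1 cells without LPS, with a ratio of 1.06 (0.989 to 1.14), and 0.278 of it at 2 h (0.268 to 0.289). At 8 h the CD14 level was close to that without LPS, with a fold of 1.03 (0.874 to 1.196), whereas the CD3E cells were at 2.29-fold (2.12 to 2.47) and the MS4A1 cells at 2.74-fold (2.56 to 2.93). The CD14 cells were far shallower at 8 h, with a median of 1550 against 8293 UMIs, and at an equal 1000 UMIs ISG15 was found in 12.3% of them without LPS (9.98% to 14.9%) and 21.4% at 8 h (14.7% to 29.4%).

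The 4 h folds of ISG15 by class were 27.3 in the MS4A1 cells (25.9 to 28.7), 20.0 in the CD3E cells (18.9 to 21.2) and 5.95 in the CD14 cells (5.54 to 6.40). When cells with other gate markers were let into the CD14 class its fold was 12.5. In the NCR1 cells ISG15 had 4 UMIs in the library without LPS and 229, 467 and 13 over the LPS times, or 13.9, 484, 900 and 49.5 CPM. The 4 h ratio of 64.9 in this class rests on those 4 UMIs and has a counting interval from 25.2 to 239, and it was 40.8 when other gate markers were ignored. The MS4A1 cells carried 55.9% of all ISG15 UMIs at 2 h and 52.0% at 4 h, with 25.7% and 28.5% of all UMIs.

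USP18 was spread differently between the classes, and it was already high in the MS4A1 cells without LPS. In the MS4A1 cells USP18 was at 138 CPM (130 to 146) without LPS, 160 CPM (153 to 167) at 2 h, 317 CPM (307 to 328) at 4 h and 121 CPM (110 to 132) at 8 h. In the CD3E cells it was at 47.0 CPM (43.6 to 50.5), 61.3 CPM (58.0 to 64.7), 134 CPM (129 to 140) and 53.2 CPM (48.3 to 58.3). The CD3E level was 0.341 of the MS4A1 level without LPS (0.309 to 0.375), 0.384 at 2 h (0.357 to 0.411), 0.423 at 4 h (0.402 to 0.445) and 0.441 by 8 h (0.386 to 0.503), so the order of these classes was the same in the 4 libraries. Without LPS USP18 was lowest in the CD14 cells, at 6.06 CPM (4.36 to 8.19), and was at 22.0 CPM (17.5 to 27.2), 65.8 CPM (52.4 to 81.5) and 21.0 CPM (12.5 to 33.2) after LPS. Its 4 h fold ran opposite to its starting level, with 10.9 in the CD14 cells (7.41 to 16.1), 2.86 in the CD3E cells (2.63 to 3.11) and 2.30 in the MS4A1 cells (2.15 to 2.47). At 2 h the CD14 folds to no LPS were 3.63 for USP18 (2.48 to 5.39) and 3.24 for HERC6 (1.62 to 6.75). ISG15 was at 3.49 there (3.27 to 3.72), UBA7 at 1.03 and UBE2L6 at 0.847. From 4 h to 8 h HERC6 in the CD14 cells was at 0.140 (0.016 to 0.574), on 2 UMIs at 8 h, and ISG15 at 0.172 (0.147 to 0.201). USP18, UBA7 and UBE2L6 were at 0.320, 0.442 and 0.842. In the NCR1 cells USP18 had 2 to 9 UMIs in each library, and a difference was not detectable at this depth.

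HERC6 had another order again. Without LPS it was at 16.6 CPM (14.6 to 18.8) in the CD3E cells, 7.77 CPM (5.95 to 9.99) in the MS4A1 cells and 2.02 CPM (1.104 to 3.39) in the CD14 cells, so the CD3E level was 2.14-fold the MS4A1 level (1.61 to 2.88). At 4 h it was at 62.7 CPM (59.2 to 66.3), 54.5 CPM (50.3 to 58.9) and 16.6 CPM (10.3 to 25.4). The MS4A1 cells reached that level between 2 h and 4 h, with 9.18 CPM (7.57 to 11.04) at 2 h and a fold of 5.93 from 2 h to 4 h (4.85 to 7.31), while ISG15 in the same cells was 2.04-fold higher (2.02 to 2.07) over that interval. By 8 h the CD3E cells held HERC6 at 27.5 CPM (24.1 to 31.3) and the MS4A1 cells at 12.5 CPM (9.23 to 16.5). The CD3E cells carried 63.7% of the HERC6 UMIs at 2 h and 53.5% at 4 h, with 45.5% and 49.0% of all UMIs.

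UBA7 and UBE2L6 were lower in the CD14 cells than in the CD3E cells without LPS, and only UBE2L6 differed between the CD3E and MS4A1 cells beyond counting error. UBA7 was at 11.3, 9.59, 27.1 and 13.8 CPM in the CD3E cells and at 9.69, 8.37, 26.3 and 17.6 CPM in the MS4A1 cells, in the order no LPS, 2 h, 4 h and 8 h. UBE2L6 was at 22.8, 23.3, 40.6 and 26.8 CPM in the CD3E cells and at 21.0, 18.6, 58.9 and 25.2 CPM in the MS4A1 cells. The intervals of these classes overlapped for UBA7 in every library. UBE2L6 was higher in the CD3E cells at 2 h, 1.25-fold (1.07 to 1.47), and lower in them at 4 h, at 0.689 of the MS4A1 level (0.621 to 0.765). In the CD14 cells UBA7 had 6 to 23 UMIs a library and UBE2L6 8 to 30, with UBE2L6 at 0.190 of the CD3E level without LPS (0.126 to 0.276).

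**Figure D2:**
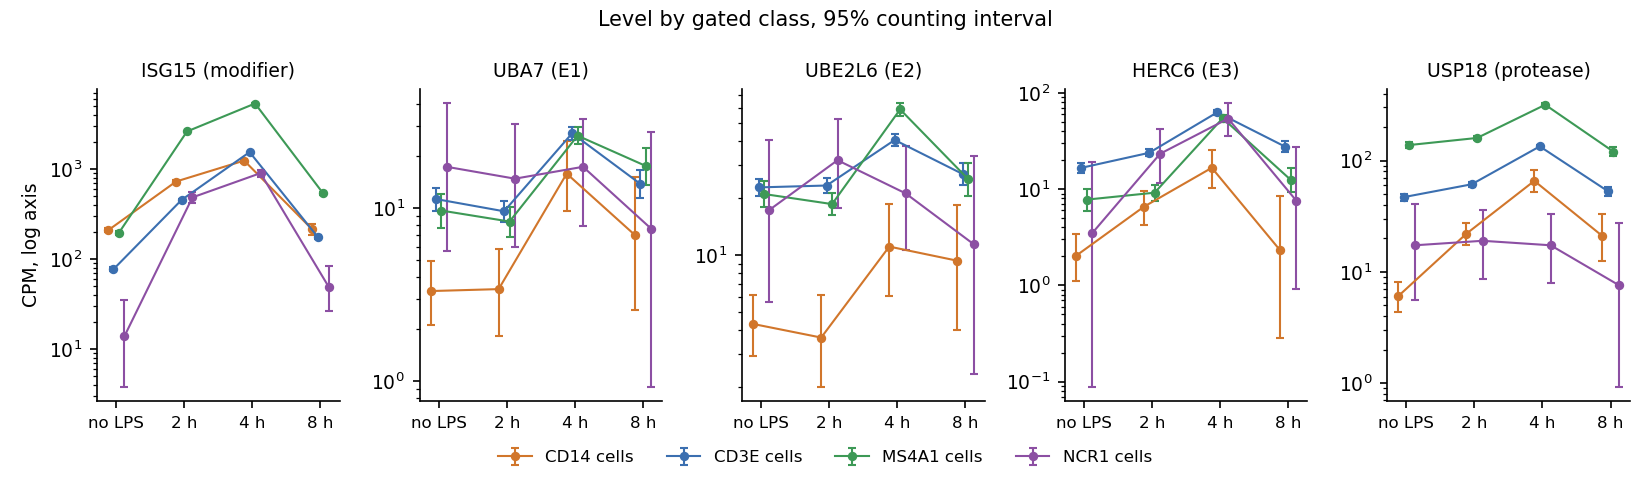
Level of each of the 5 genes by library in cells gated on CD14, CD3E, MS4A1 or NCR1 (y axis, CPM on a log axis). Points are 1 library and whiskers the exact Poisson 95% interval, with points set side by side for legibility. ISG15 is highest in MS4A1 cells after LPS (5344 CPM at 4 h), USP18 is highest in MS4A1 cells at every time, and HERC6 is higher in CD3E than in MS4A1 cells at every time.

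By class at 4 h, 5 of 5 genes were at least 2-fold higher than without LPS in the CD14 cells (6.61% of all genes compared there), 4 of 5 in the CD3E cells (1.08%) and 5 of 5 in the MS4A1 cells (2.56%). The exception in the CD3E cells was UBE2L6, at 1.78-fold (1.57 to 2.03). In the CD14 cells UBE2L6 passed at 2.56-fold (1.26 to 4.99) on 14 and 30 UMIs, and was at 1.98-fold where the gate needed 2 UMIs of CD14. In the NCR1 cells only ISG15 and HERC6 reached 20 UMIs over the pair of libraries, HERC6 with 1 UMI without LPS and 28 at 4 h, a ratio of 15.6 (2.57 to 636). Both met that minimum through the 4 h library alone, so passing 2-fold there, as 5.46% of the genes compared did, was fixed by the filter.

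To compare single cells at 1 depth, each cell was thinned to 1000 UMIs, and shallower cells were left out. ISG15 was then detected in 7.45% of the cells without LPS (Clopper-Pearson interval 6.86% to 8.08%), 23.7% at 2 h (22.8% to 24.6%), 48.8% at 4 h (47.6% to 49.97%) and, by 8 h, 18.2% (16.8% to 19.6%). Without thinning the shares were 19.3%, 39.4%, 67.3% and 36.7%. Among the MS4A1 cells ISG15 was found in 8.80%, 40.0%, 70.2% and 27.0%, and among the CD3E cells in 4.999%, 13.3%, 36.9% and 11.9%. Among the CD14 cells the shares were 12.3%, 34.3%, 39.4% and 21.4%. As a gauge of free RNA, the monocyte markers were found, by their median, in 0.0265% to 0.400% of the CD3E cells of a library at the same 1000 UMIs. B cell markers were found there by their median in 0.229% to 1.40%, and the most frequent of them in 8.04% to 9.14%. The 4.999% of CD3E cells with ISG15 without LPS lies above these medians and under that highest value, and is not read as expression. The highest value is that of a single marker, and why it was so frequent was not tested, so it cannot set the level of free RNA. The same cells without LPS are the base of the 20.0-fold of the CD3E cells at 4 h. The other 4 genes were sparse. At 4 h, where each was most frequent, USP18 was found in 16.6% of all cells, HERC6 in 5.35%, UBE2L6 in 4.49% and UBA7 in 2.79%.

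The spread of ISG15 from cell to cell was wide. In cells thinned to 2000 UMIs, 89.1% of cells had no ISG15 UMI in the library without LPS, and 69.4%, 42.0% and 73.9% had none over the LPS times. The share with 10 or more UMIs was 0.224%, 5.90%, 17.9% and 0.639%. At 2 h the MS4A1 cells were spread out, with 50.4% at 0, 19.8% at 1 to 2, 16.3% at 3 to 9 and 13.4% at 10 or more. The 10% of them with the most ISG15 held 68.0% of its UMIs. At 4 h 21.5% of the MS4A1 cells were at 0 and 34.9% at 10 or more, and the top 10% held 41.1%. The CD3E cells at 4 h still had 53.5% at 0, with 9.09% at 10 or more. Before thinning, the highest cell held 521 ISG15 UMIs of its 11558 at 4 h. At 8 h 1 cell held 262 of its 2475, or 10.6%, and by itself carried 4.64% of the ISG15 UMIs of that library. The 10 highest cells held 17.3% and 16.6% of all ISG15 UMIs without LPS and at 8 h, against 5.66% and 3.14% at 2 h and 4 h.

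**Figure D3:**
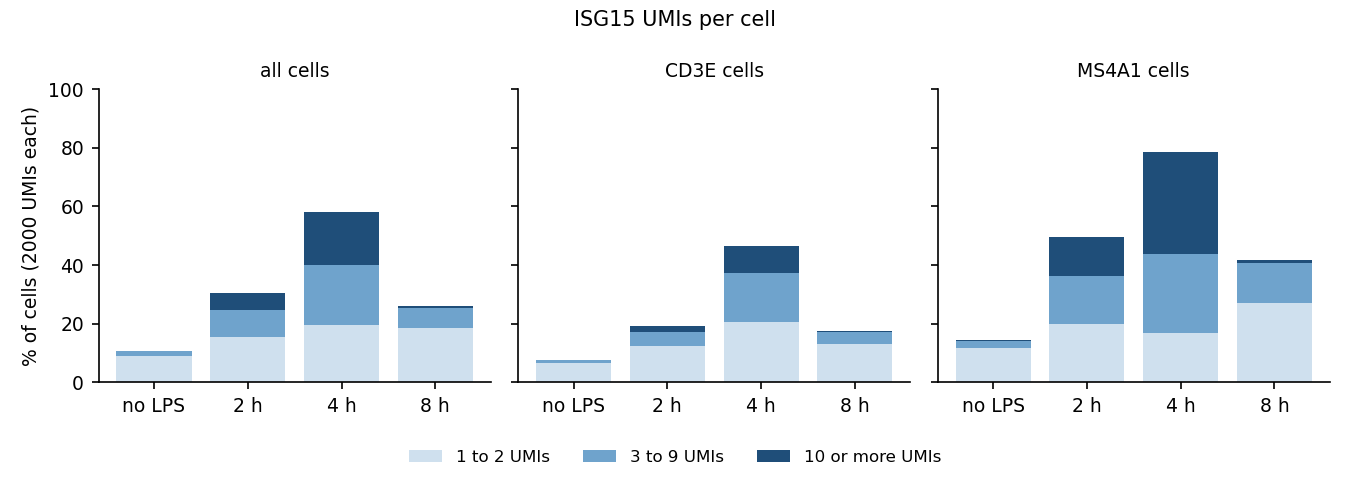
Share of cells (y axis, %) with 1 to 2, 3 to 9 or 10 or more ISG15 UMIs after every cell was thinned to 2000 UMIs, by library, for all cells and for CD3E and MS4A1 cells. The rest of each bar up to 100% is cells with no ISG15 UMI. The share with 10 or more reaches 17.9% of all cells and 34.9% of MS4A1 cells at 4 h.

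At 4 h the other 4 genes were found more often in cells with more ISG15, over all cells and in the CD3E and MS4A1 cells. USP18 was found in 13.6% of the cells with no ISG15 UMI (12.3% to 14.9%), 23.6% of those with 1 to 2, 39.2% of those with 3 to 9 and 55.7% of those with 10 or more (52.9% to 58.6%), all at 2000 UMIs per cell. HERC6 went from 4.81% (4.05% to 5.66%) to 22.2% (19.9% to 24.7%) between the lowest and the highest of these ISG15 groups. UBA7 went from 1.84% (1.38% to 2.40%) to 14.3% (12.3% to 16.4%) and UBE2L6 from 5.02% (4.24% to 5.89%) to 17.1% (15.0% to 19.3%). In the CD3E cells HERC6 was found in 5.33% of the cells without ISG15 and 35.2% of those with 10 or more, and UBA7 in 2.20% and 20.8%. In the MS4A1 cells HERC6 went from 1.02% to 15.9% and UBA7 from 1.52% to 11.2%, while USP18 began at 25.6% and ended at 59.0%. In the CD14 and NCR1 cells only 12 and 3 cells had 10 or more ISG15 UMIs, and no such order could be seen for every gene, with UBE2L6 in 8.33% of the CD14 cells without ISG15 and 0 of those 12. At 2 h USP18 went from 12.5% (11.6% to 13.3%) to 27.1% (23.3% to 31.2%) and HERC6 from 2.74% (2.34% to 3.18%) to 6.82% (4.80% to 9.36%) over all cells. UBA7 did not differ there beyond counting error, with 1.72% (1.41% to 2.09%) and 1.75% (0.805% to 3.304%), nor did UBE2L6, with 4.03% (3.55% to 4.55%) and 4.68% (3.02% to 6.88%). Of the 513 cells with 10 or more ISG15 UMIs at 2 h, 306 were MS4A1 cells. Within the MS4A1 cells USP18 overlapped at 2 h, with 24.83% (22.35% to 27.43%) and 28.76% (23.75% to 34.18%). In the CD3E cells USP18 went from 9.861% (8.917% to 10.87%) to 23.91% (15.63% to 33.94%) at 2 h. Of the USP18-positive cells at 4 h, 384 had no ISG15 UMI. All 5 genes were found together in 4 of 6735 cells at 4 h. Cells of 1 library are not replicates, and their depth was made equal by the thinning.

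**Figure D4:**
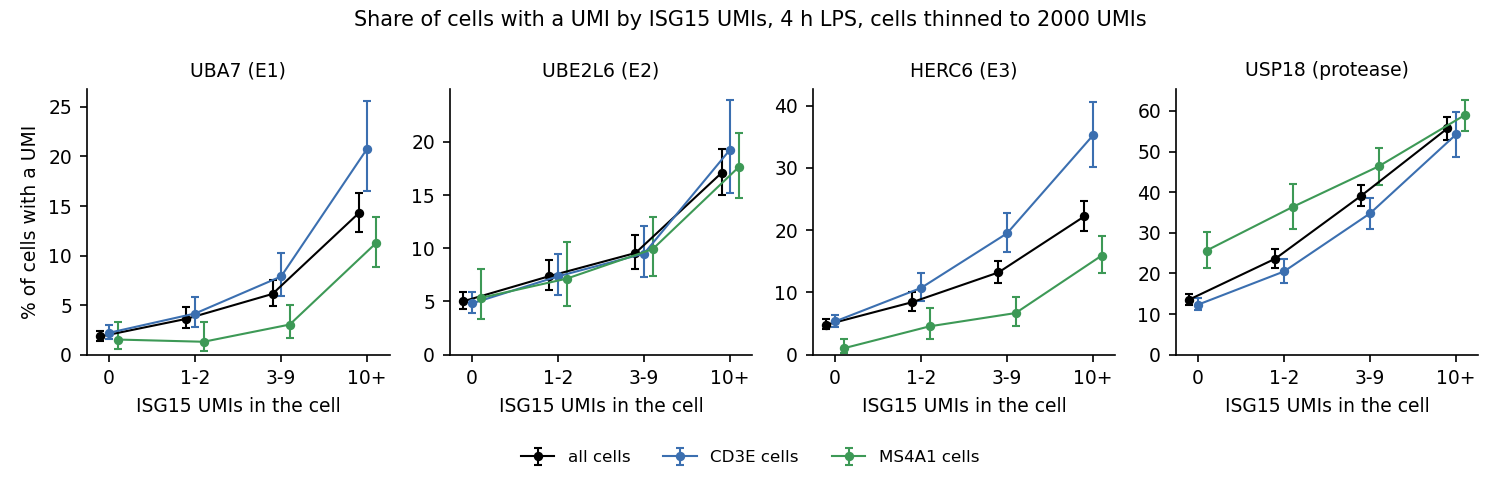
Share of cells with at least 1 UMI of UBA7, UBE2L6, HERC6 or USP18 (y axis, %, a different scale for each gene) by the number of ISG15 UMIs in the same cell, in the 4 h LPS library with every cell thinned to 2000 UMIs. Points are shares and whiskers exact 95% intervals, for all cells and for CD3E and MS4A1 cells. Each line ends well above its start, for USP18 over all cells at 55.7% against 13.6%.

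Without LPS the shallow cells held more of the ISG15 UMIs than their share of all UMIs, though most lay in the deeper cells. A split at 2000 UMIs per cell, looked at after the data were seen, put ISG15 at 1293 CPM (1231 to 1356) in the 1122 cells under it without LPS and at 123 CPM (120 to 127) in the 6699 cells above it. The shallow cells held 26.6% of the ISG15 UMIs of that library with 3.35% of all UMIs. At 4 h the levels were 4079 CPM (3935 to 4226) and 2912 CPM (2896 to 2929), so the 4 h fold was 3.16 in the shallow cells (2.97 to 3.35) and 23.6 in the deeper ones (22.9 to 24.3). At 8 h the 2 groups went opposite ways. ISG15 in the shallow cells was at 0.446 of their level without LPS (0.4055 to 0.490), and in the deeper ones at 2.618-fold (2.515 to 2.725). USP18, HERC6, UBA7 and UBE2L6 in the shallow cells did not differ from no LPS beyond counting error at 8 h. Weighting every cell equally, as above, gives the shallow cells more weight.

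Granulocyte markers were higher in these shallow cells in every library. CSF3R, CXCR1 and CXCR2 summed to 230, 319, 537 and 121 CPM in the cells under 2000 UMIs, in the order of the libraries, against 5.05, 11.5, 17.7 and 9.35 CPM in the deeper cells. Shallow cells that also had no gate marker, 487 of them without LPS, were at 2479 CPM of ISG15 (2343 to 2620) and 466 CPM of the granulocyte markers. Monocyte markers were at 615 CPM in the same cells. Over all shallow cells they were at 846, 147, 272 and 406 CPM in the order of the libraries, against 727, 188, 70.5 and 139 CPM in the deeper ones. Cells with a UMI of a granulocyte marker had ISG15 at 1183 CPM (1115 to 1254) without LPS, 1866 CPM (1800 to 1933) at 2 h, 4234 CPM (4129 to 4342) at 4 h and 1942 CPM (1806 to 2086) at 8 h. At 8 h they were thus far above the 301 CPM (292 to 309) of the other cells. Leaving out the cells with a granulocyte marker UMI, the folds of ISG15 were 8.62, 21.1 and 2.198. Monocyte markers summed to 2185 CPM in the cells with a granulocyte marker UMI without LPS and to 694 CPM in the others. What part either cell type has in the ISG15 level without LPS was not tested. Without LPS the other 4 genes had smaller gaps or none. In the shallow cells without LPS USP18 was at 110 CPM (92.9 to 130) against 60.5 CPM (58.0 to 63.0) in the deeper ones, HERC6 at 22.5 CPM (15.1 to 32.3) against 10.8 CPM (9.75 to 11.9) and UBA7 at 19.4 CPM (12.6 to 28.7) against 9.06 CPM (8.11 to 10.1). UBE2L6 overlapped, with 21.7 CPM (14.5 to 31.4) and 18.1 CPM (16.8 to 19.6). Their 4 h folds in the deeper cells were 3.24 for USP18, 5.29 for HERC6, 2.88 for UBA7 and 2.46 for UBE2L6, all within the intervals of their folds over all cells. After LPS gaps remained. At 2 h USP18, HERC6 and UBA7 were at 160, 41.2 and 27.0 CPM in the shallow cells, against 85.8, 16.3 and 8.52 CPM, and UBE2L6 overlapped. At 4 h USP18 was at 413 CPM (368 to 462) against 196 CPM (192 to 201). UBA7 was then at 61.7 CPM (45.2 to 82.3) against 26.1 CPM (24.5 to 27.7), and HERC6 and UBE2L6 overlapped. Without LPS USP18 was at 67.5 CPM (52.0 to 86.2) in the cells with a granulocyte marker, HERC6 at 8.43 CPM (3.64 to 16.6) and UBE2L6 at 24.3 CPM (15.4 to 36.4), whose intervals held the level over all cells, and UBA7 was at 21.1 CPM (12.9 to 32.6) on 20 UMIs.

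**Figure D5:**
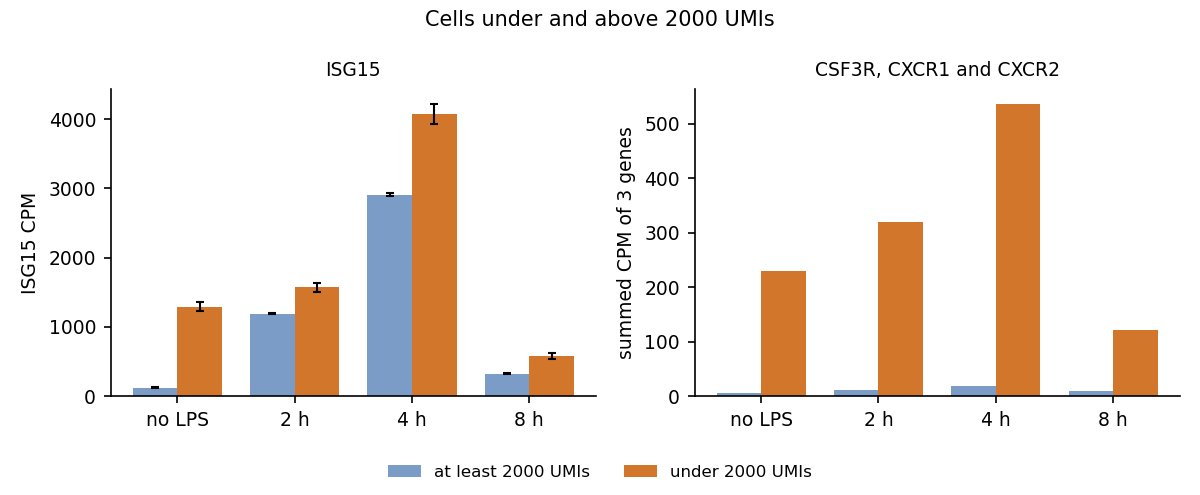
ISG15 (left, CPM, with exact Poisson 95% intervals) and the summed granulocyte markers CSF3R, CXCR1 and CXCR2 (right, CPM) in cells under and above 2000 UMIs in each library. Without LPS the shallow cells are at 1293 CPM of ISG15 against 123 CPM in the deeper ones, and the granulocyte markers are higher in the shallow cells in every library.

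Of 10 other genes tied to the ISG15 pathway, 1 was at least 2-fold higher and 1 at least 2-fold lower at 4 h, where 1.28% of all genes compared were higher and 4.26% lower. At 2 h 0 of the 10 were higher or lower, beside 0.938% and 2.46% of all genes, and at 8 h also 0, beside 0.492% and 2.92%. HERC5, the other ISG15 ligase, was at 51.1 CPM without LPS and 77.6, 249 and 77.2 CPM after, or 4.87-fold at 4 h, close to the 5.14 of HERC6. ITGB2, the beta chain of the integrin that binds free ISG15, was at 166, 91.1, 65.7 and 98.1 CPM, or 0.397-fold at 4 h. ITGB2 is an adhesion gene of all leukocytes, monocytes included, and the CD14 cells were 10.2% of all cells without LPS and 2.04% at 4 h. What part this has in the ITGB2 value was not tested. TRIM25, a ligase that is itself modified by ISG15, was at 1.81-fold at 4 h, and USP21 was at 0.752-fold. HERC5 and HERC6 are paralogs, so reads they share may be lost or split in the counting, and both are uncertain to that extent.

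Relatives of the 5 genes in the ubiquitin system were also listed. Of 19 genes for ubiquitin, other modifiers, their E1 and E2 enzymes and the large HERC ligases, 0 were 2-fold higher or lower at any LPS time, which is near those shares of all genes for a list of this size. UBE2L3, the ubiquitin E2 most like UBE2L6, was at 0.928-fold at 4 h, and UBA1, the ubiquitin E1 related to UBA7, at 1.06-fold. At 4 h SUMO2 was at 1.29-fold, UBD at 1.28-fold and UBA3 at 1.27-fold. The list's median log2 ratio at 4 h was 0.07.

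Other interferon-stimulated genes were listed too. Of 28 names listed, 25 were analysed here, all but BST2, RIGI and SAMD9. Of these 25, 5 were at least 2-fold higher at 2 h, 24 at 4 h and, by 8 h, 0, and none was 2-fold lower. The exception at 4 h was PARP9, at 1.81-fold. Their median log2 ratio was 0.38, 2.30 and 0.60 over the LPS times. The largest at 4 h were IFIT3 (16.8-fold), of the antiviral IFIT family, OAS2 (15.7-fold, from 14 UMIs without LPS), IFIT2 (11.5-fold) and OAS1Y (11.5-fold), and the intervals of IFIT3 (14.6 to 19.4) and OAS2 (9.16 to 29.1) held the 18.1 of ISG15. The 5 genes past 2-fold at 2 h were IFIT2, IFIT1, IFIH1, MX1 and IFIT3, from 2.33-fold for IFIT3 to 5.08-fold for IFIT2, all below the 7.39-fold of ISG15.

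Of 11 genes of interferon signalling, 2 were at least 2-fold higher at 4 h, where 1.28% of all genes were. At 2 h and by 8 h 0 were, near the 0.938% and 0.492% of all genes. The 2 were IRF7, a factor that amplifies interferon production, at 4.07-fold, and STAT2, a part of the complex that binds interferon-stimulated genes, at 2.19-fold. IRF9 was at 1.498-fold and IRF1 at 1.38-fold. IFNAR2, the receptor chain to which USP18 binds, was at 60.3, 74.4, 73.4 and 70.7 CPM. The 13 rows named as type I or type III interferons held 0 UMIs in the kept cells of every library. That allows up to 3 UMIs a library for each in those cells. IFNG, the type II interferon, had 35, 417, 162 and 17 UMIs in the same cells. Rows were found by gene name only, and barcodes outside the limits were not counted.

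The genes most like ISG15 were found over the 16 values of 4 classes in 4 libraries, by Pearson's r of log2(CPM + 1) among 9633 genes with at least 200 UMIs. They were HNRNPU (r = 0.84), MX1 (0.84), TDRD7 (0.83), TRAF3 (0.80), OAS2 (0.79), NFKB2 (0.79), PSMA1 (0.78), RBBP8 (0.78), RPP38 (0.77) and ALYREF (0.77). The points share libraries and differ in depth, so these values are a description. USP18 had r = 0.61 with ISG15 (number 143 in the order), HERC6 0.56 (number 253), UBE2L6 0.29 (number 1768) and UBA7 0.26 (number 2070). UBA7 and UBE2L6 were more like each other, with r = 0.87, than either was to ISG15. This was not particular to the pair, since HERC6 had r = 0.73 with UBA7 and 0.76 with UBE2L6. USP18 had 0.55 and 0.66 with them. The CD14 and NCR1 values of UBA7 and UBE2L6 rest on few UMIs, in the NCR1 cells 2 to 9 and 3 to 15 a library.

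Chromatin accessibility was given as counts per gene and nucleus in 4 further libraries, in which DNA is cut by a transposase where chromatin is open. How a fragment was credited to a gene is not given in the sources used here, and 88.7% to 93.8% of the values above 0 were even, so intervals were computed on halved counts. The library without LPS held 975012 counts against 30250143 at 2 h, 26837579 at 4 h and 11957904 at 8 h, and its values are given only as levels. ISG15 was listed at 45.1 CPM without LPS (28.3 to 68.3), 45.6 CPM at 2 h (42.3 to 49.2) and 40.4 CPM at 8 h (35.4 to 45.7), and was not analysed here at 4 h. These 3 intervals overlapped, and the 8 h to 2 h ratio was 0.884 (0.760 to 1.03). UBA7 was not analysed here in the library without LPS.

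From 2 h to 4 h the accessibility of the other 4 genes differed less than their RNA, by 1.05-fold to 1.21-fold against 2.25-fold to 3.37-fold. From 4 h to 8 h this was also so for USP18, HERC6 and UBE2L6, whose RNA was at 0.384, 0.355 and 0.552. It was not so for UBA7, with 0.489 in accessibility and 0.606 in RNA (0.528 to 0.693), whose intervals overlapped. USP18 was at 212, 250, 261 and 230 CPM in the order no LPS, 2 h, 4 h and 8 h, a ratio of 1.05 from 2 h to 4 h (0.998 to 1.095) and 0.880 from 4 h to 8 h (0.826 to 0.937). HERC6 was at 49.2, 60.2, 69.5 and 51.5 CPM, with ratios of 1.15 (1.05 to 1.27) and 0.741 (0.649 to 0.844). UBE2L6 was at 86.2, 91.0, 96.8 and 83.9 CPM, with ratios of 1.06 (0.985 to 1.15) and 0.866 (0.779 to 0.960). UBA7 was at 16.7, 20.2 and 9.95 CPM at 2 h, 4 h and 8 h, with ratios of 1.21 (1.01 to 1.44) and 0.489 (0.362 to 0.650). The 2 h to 4 h ratios of USP18 and UBE2L6 held 1, and the intervals without LPS held the 4 h levels of HERC6 (31.5 to 73.3) and UBE2L6 (62.1 to 117). From 2 h to 4 h the central 95% of 12970 genes lay between 0.580 and 1.31 and from 4 h to 8 h that of 11404 genes between 0.301 and 1.40, and all 8 ratios fell inside. In shares of nuclei thinned to 500 counts, the 2 h to 4 h ratios of USP18 and HERC6 were 0.879 and 0.982, below 1.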

How the data were processed

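The 5 genes, the gene lists and the marker genes were chosen with earlier results of these data known. The 4 deposited RNA tables hold whole UMI counts of each gene in each barcode, which the authors made with Cell Ranger on the cattle genome ARS-UCD1.2 per the labels. The 4 deposited accessibility tables hold whole counts of each gene in each barcode, and how they were counted is not given in the sources used here. Neither kind was normalized before deposit.

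Barcodes were kept if they had between 200 and 3000 genes, no fewer than 200 UMIs and less than 20% of UMIs from mitochondrial genes. Of 8490, 10429, 7977 and 3860 deposited barcodes these limits kept more cells than the study did, and the reason is not given in the sources used here. The UMIs of each library, or of each class in it, were added up and expressed as CPM. A gene counted as 2-fold higher or lower from log2 of the ratio of CPM + 1, among genes with at least 20 UMIs over both libraries. Thinning drew UMIs of a cell without replacement, with a fixed seed. With 1 library per treatment no test was run and no p-value computed. Genes named are the 5, up to 4 of each list with the largest ratios, and the 10 most like ISG15; others, the split at 2000 UMIs and the granulocyte split were chosen after their values were seen. One gene that this rule names is not reported here. Scripts ran in Python 3.11.15 with numpy 2.4.6, scipy 1.17.1 and pandas 2.3.3. edgeR 4.0.16 and DESeq2 1.42.0 gave alternative scaling only. Simulated counts with 200 changed genes were used to test the ratio step, and the sign of 100% of them was recovered for each of the 3 comparisons (12139, 12082 and 11796 genes). Gene symbols are those of the deposited tables. No coordinates or sequences were used.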

Additional observations from a re-analysis of the deposited data

Results flagged for a closer look

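USP18 at 8 h went opposite ways in 3 gated classes, with counting intervals that all left out 1. Against no LPS it was at 3.47-fold in the CD14 cells (1.88 to 6.16, 18 against 42 UMIs) and 1.13-fold in the CD3E cells (1.003 to 1.28), but at 0.875 in the MS4A1 cells (0.784 to 0.976). With 1 library per treatment the difference between classes was not tested. These are ratios of plain CPM, and the CD3E interval begins close to 1. Over all cells the 8 h fold of USP18 was 1.24, and 1.134 with edgeR TMM scaling or 1.135 with DESeq2 size factors. The classes were not rescaled in this way. In cells with at least 2000 UMIs the CD14 value was 2.22 (0.944 to 4.69), on 9 UMIs at 8 h, and the CD3E and MS4A1 values were 1.16 (1.02 to 1.31) and 0.874 (0.781 to 0.977). B cell markers, summed over the CD14 cells, were at 20.5 CPM without LPS and 121 CPM at 8 h, and their part in the CD14 value was not tested.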

How the results depend on the processing

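Alternatives gave 238 values in all. Of those for the main results, 63 stayed within the counting interval of the main value, or within 1.5-fold for counts and percents of genes, and 40 did not. For the other results 121 stayed and 14 did not. The 114 alternative values of ratios of at least 2 were all above 1, and 110 of them were at least 2. Those ratios were taken for being high in the same libraries, so nothing is read from this. The cells under 2000 UMIs, with ISG15 at 0.446 at 8 h, were not among the alternatives. The folds of ISG15 at 2 h and 4 h (7.39 and 18.1) were 6.344 and 16.1 without an upper limit on genes, 6.343 and 16.1 with every deposited barcode, 9.645 and 23.59 with at least 2000 UMIs per cell, 3.889 and 9.203 with cells weighted equally, and 8.616 and 21.1 without the cells with a granulocyte marker UMI, a setting chosen after the data were seen. At 8 h (2.09) the fold was 2.618 with at least 2000 UMIs, 2.198 without the granulocyte marker cells, 1.38 with cells weighted equally, 1.912 with edgeR TMM scaling and 1.913 with DESeq2 size factors. The last 3 left 0 of the 5 genes past 2-fold at 8 h instead of 1, and a limit of 1.5-fold gave 3. The 4 h fold of ISG15 was 5.435 in the CD14 cells and 33.69 in the MS4A1 cells when the gate needed 2 UMIs, and 12.45 and 29.28 when other gate markers were ignored. With a gate of 2 UMIs the NCR1 cells had 0 ISG15 UMIs without LPS and gave no value. In the NCR1 cells the 4 h ratio of HERC6 was 4.02 when other gate markers were ignored, against 15.6.

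The share of cells with ISG15, in the order no LPS, 2 h, 4 h and 8 h, was 19.28%, 39.44%, 67.27% and 36.65% without thinning, 10.87%, 30.63%, 57.98% and 26.07% at 2000 UMIs, and 2.366%, 14.51%, 35.79% and 6.229% where 2 UMIs were needed. As shares of nuclei thinned to 500 counts, the accessibility ratios from 2 h to 4 h were 0.8789 for USP18, 0.9821 for HERC6, 1.483 for UBA7 and 1.3 for UBE2L6, and the 4 h to 8 h ratio of UBE2L6 was 0.7538. The cause of these shifts was not tested. Depth limits the CD14 and NCR1 classes, where every value of the other 4 genes rests on fewer than 100 UMIs, and the accessibility library without LPS.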

Other observations

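Cells outside the 4 classes also held ISG15. The cells with no gate marker were at 459 CPM without LPS (437 to 482), 1337 CPM at 2 h (1303 to 1371), 3378 CPM at 4 h (3321 to 3436) and 962 CPM at 8 h (910 to 1016). They carried 25.4% of the ISG15 UMIs without LPS with 8.998% of all UMIs, and 22.9% at 8 h with 8.07%, against 10.7% and 11.4% at 2 h and 4 h. The cells with several gate markers were at 107 CPM without LPS (97.7 to 117), 1294 CPM at 2 h (1263 to 1327), 3294 CPM at 4 h (3232 to 3356) and 299 CPM at 8 h (275 to 324). USP18 in the cells with no gate marker was at 79.4, 88.4, 222 and 124 CPM in the same order, and 9.64% to 13.0% of the USP18 UMIs of a library were there.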
